A study of Rattus norvegicus with 6 samples.

Results

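The collagen chains of cultured rat spinal cord neurons were examined after silencing of galectin-3 (GAL3, gene LGALS3), a lectin that binds galactose-containing sugars on proteins. A member was any gene whose symbol reads COL, a number, A and a number with nothing after it, and 42 of the 17648 genes in the expression matrix met that rule. They comprised 10 fibrillar chains, 6 basement membrane chains (type IV) and 26 other chains. COL1A2, COL21A1 and COL23A1, which would also belong, were not analysed here. The neurons came from the spinal cord of neonatal Sprague-Dawley rats, were grown with Ara-C, an inhibitor of dividing cells, and had been in culture for 3 days when the injury model began. The Glu + siR-Con group held 3 libraries from neurons given a control siRNA, a short RNA that silences a matching transcript, and the Glu + siR-GAL3 group 3 libraries from neurons given 1 siRNA that targets GAL3. By the methods of the study, both groups were exposed to 10 μM glutamate for 1 h and then kept for 16 h without it. Some sample labels instead give saline for the control libraries and call the GAL3 samples a knockout. By those labels glutamate and the loss of GAL3 cannot be told apart. The source names, however, begin with Glu in the control group and with Glu_L in the GAL3 group, so the labels disagree among themselves.

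Collagens are proteins of 3 chains wound into a triple helix, each chain built largely of short repeats that begin with glycine. Fibrillar collagens form the banded fibres of connective tissue, type IV collagen forms the sheet-like network of basement membranes around vessels and along the pial surface, and the remaining types link, coat or anchor these structures or span the cell membrane. In the spinal cord collagen is made mainly by meningeal and perivascular fibroblasts, mural cells and endothelial cells, and fibrous scar rich in types I, III and IV forms after injury.

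The values analysed were expression values on a linear scale that the authors derived from FPKM, read fragments scaled to transcript length and library size. Levels of different chains are set side by side on that basis. How the authors' further processing altered those levels was not tested. Column totals lay between 64313 and 64714, and 3.86% of the values were below 0. Read numbers per library cannot be had from such values, and counting error is left out for that reason. Exactly equal values other than 0 were more frequent between some libraries than others, with 1312 to 1463 such genes for a pair within a set as defined here and 238 to 264 for other pairs. Replicate 1 of both groups formed the first set. Replicate 3 of both groups together with siR-Con replicate 2 formed the second. The remaining library, siR-GAL3 replicate 2, was alone and lay far from the other 5 along principal component 1, which held 65.2% of the variance. No collagen chain had an equal value in any pair of libraries. The targeted gene LGALS3 was 77.4, 54.4 and 62.4 in siR-Con replicates 1 to 3 and -1.64, 32.3 and 18.5 in siR-GAL3 replicates 1 to 3. Nothing in the labels says that the libraries of a group came from separate cultures, so the p-values measure the spread between these libraries, which may be technical. Of the 11 neuronal markers in the matrix, 6 reached a mean of 1, MAP2 at 16.9, ELAVL3 at 9.10, GAP43 at 8.37, TUBB3 at 4.63, SYT1 at 1.89 and STMN2 at 1.06. RBFOX3, CHAT, NEFL and NEFM, which define mature and motor neurons, had means of 0.383, 0.0241, 0.343 and 0.594. The astrocyte marker GFAP had a mean of 589.6. FABP7, AQP4 and S100B, of the same list, were at 214.3, 115.9 and 79.1. SLC1A2 and ALDH1L1 lay below MAP2, at 12.8 and 3.21. The values are therefore those of a whole culture with glial RNA, not of neurons alone.

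Collagen levels were lower in the Glu + siR-GAL3 group for 19 of the 21 chains that could be tested, those with a mean of at least 1, against 50.0% of all genes tested, and no chain passed the adjusted test. The summed value of all chains was 132.3, 142.6 and 142.6 in siR-Con replicates 1 to 3 and 122.1, 84.4 and 115.2 in siR-GAL3 replicates 1 to 3. The means were 139.2 ± 5.91 and 107.2 ± 20.1 (SD, n = 3 each), a difference of 22.9%, and the groups were fully separated (two-sided exact permutation p = 0.1, the lowest value this design can give). In limma, a linear model with variances moderated across genes, on log2(value + 1) with Benjamini-Hochberg adjustment over the 8495 genes tested, the adjusted p of the 21 chains lay between 0.233 and 0.857. No gene of the whole table had an adjusted p under 0.05 (0% of genes), and 736 had an unadjusted p under 0.05. An unadjusted p under 0.05 was found for 10 of the 21 chains, against 8.66% of all genes tested, 9 of them lower in siR-GAL3 (4.25% of all genes) and 1 higher (4.41%). The 10 became 5 without siR-Con replicate 2 (4.29% of all genes) and 5 without siR-Con replicate 3 (4.26%). In both cases these were COL1A1, COL3A1, COL4A1, COL5A2 and COL7A1. No chain had an absolute log2 fold change above 1 together with an unadjusted p under 0.05, which 0.318% of all genes had. The groups did not overlap for 13 chains, 12 of them lower in siR-GAL3, against 20.5% of all genes without overlap and 10.3% without overlap and lower. The median log2 fold change of the 21 chains was -0.23, and that of all genes tested was -1.2e-05. In RNA of a whole culture, fewer collagen-producing cells and less collagen RNA per cell cannot be told apart.

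siR-GAL3 replicate 2 was the lowest library for 19 of the 21 chains, against 35.1% of all genes tested, and 18 chains had their highest value in an siR-Con library, against 36.2%. Without siR-GAL3 replicate 2, 18 of the 21 chains had log2 fold changes below 0 (51.3% of all genes) and the difference in summed value was 14.7%. COL4A1 and COL4A2 then had adjusted p values of 0.0294 and 0.0257 in limma, both lower in siR-GAL3, while 1.97% of all genes had an adjusted p under 0.05 and 0.958% were also lower. In that fit 13 chains had an unadjusted p under 0.05 (16.3% of all genes), 11 lower (9.41%) and 2 higher (6.92%), and 14 chains did not overlap (33.7%). Within the first library set the collagen sum was 7.74% lower in siR-GAL3, and within the second 19.2% lower. A total of 13 chains were below every siR-Con library of their own set in both sets, against 23.0% of all genes. A further limma fit took the library set as a factor, which leaves siR-GAL3 replicate 2 without weight because it has no partner. There 17 chains had log2 fold changes below 0 (50.7% of all genes). No chain had an adjusted p under 0.05, against 1.25% of all genes and 0.353% that were lower. An unadjusted p under 0.05 was found for 11 chains (13.8%), 10 lower (7.90%) and 1 higher (5.92%), and none combined that with an absolute log2 fold change above 1 (0.330%).

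**Figure D1:**
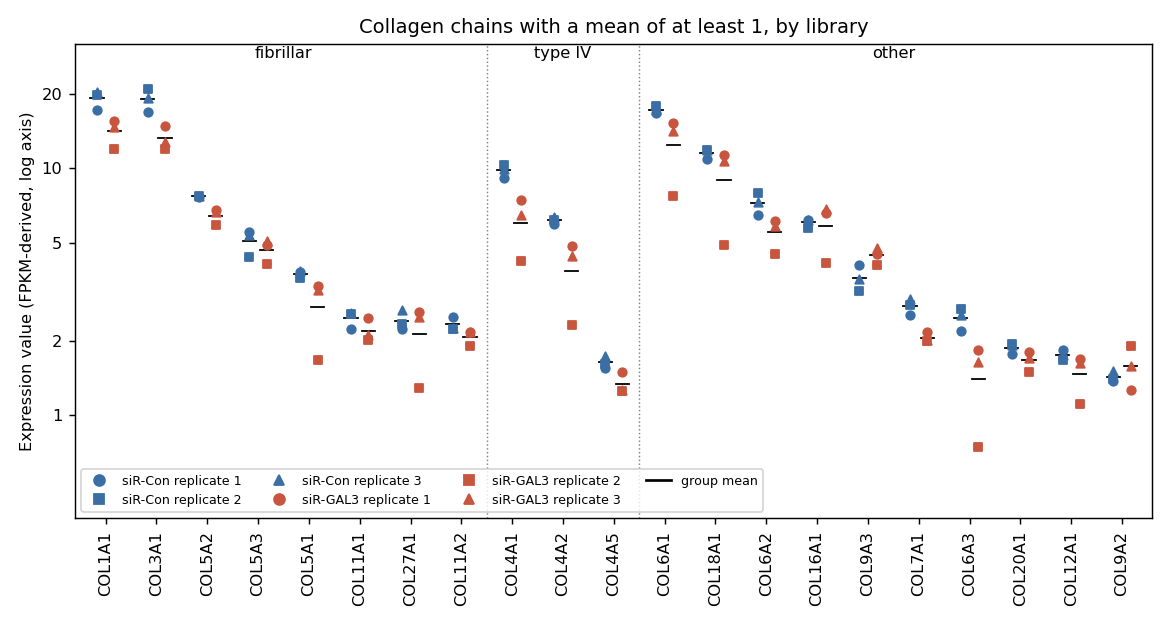
Expression values (FPKM-derived, log axis) of the 21 collagen chains with a mean of at least 1, one point per library and a bar at each group mean, with siR-Con in blue and siR-GAL3 in red. In 12 chains all red points lie below all blue points, in COL9A3 all lie above, and the red square, siR-GAL3 replicate 2, is the lowest point in 19 chains.

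Among chains with a mean of at least 1, type IV collagen had the largest median difference of the 3 classes. Without that filter its median log2 fold change was -0.13 and that of the fibrillar chains -0.15. COL4A1 and COL4A2 wind together, as 2 chains of the first and 1 of the second, into the trimer found in nearly all basement membranes. Their genes lie head to head on opposite strands, and in the RefSeq annotation of assembly GRCr8 only 76 bases separate the start sites. That stretch is shown because one sequence serves as the upstream region of both chains. It is given on the plus strand, which is the strand of COL4A1, at chr16:84885521-84885596, with the letters CCGCCC, the reverse complement of the GC box GGGCGG, in capitals.

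COL4A1_COL4A2: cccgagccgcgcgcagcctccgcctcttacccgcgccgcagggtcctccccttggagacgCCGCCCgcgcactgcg

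COL4A1 was 9.16, 10.3 and 9.93 in siR-Con replicates 1 to 3 and 7.44, 4.20 and 6.45 in siR-GAL3 replicates 1 to 3. The groups did not overlap, and the means of 9.81 ± 0.602 and 6.03 ± 1.66 (SD, n = 3 each) differed by 38.5%. Its log2 fold change was -0.65 (standard error 0.17, unadjusted p = 0.00726, adjusted p = 0.343 in limma). COL4A2 was 5.94, 6.17 and 6.33 in siR-Con replicates 1 to 3 and 4.82, 2.32 and 4.40 in siR-GAL3 replicates 1 to 3, a difference in means of 37.5%. Its log2 fold change was -0.60 (standard error 0.20, adjusted p = 0.499). Both chains were lowest in siR-GAL3 replicate 2, and without that library the differences were 29.2% and 25.0%. The ratio of COL4A1 to COL4A2 was 1.54, 1.68 and 1.57 in siR-Con replicates 1 to 3 and 1.54, 1.81 and 1.47 in siR-GAL3 replicates 1 to 3.

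The remaining type IV chains were much lower. COL4A5, which joins the type IV trimers of glomerular and some other specialised basement membranes, was 1.54, 1.61 and 1.74 in siR-Con replicates 1 to 3 and 1.49, 1.25 and 1.26 in siR-GAL3 replicates 1 to 3. The groups did not overlap, though siR-GAL3 replicate 1 lay only just below the lowest siR-Con library, and the log2 fold change was -0.17 (standard error 0.07, adjusted p = 0.545 in limma). COL4A6, its neighbour on the X chromosome, had group means of 0.2498 and 0.1772, and the groups overlapped. COL4A3 and COL4A4, partners of COL4A5 in the mature glomerular network, had means over all libraries of 0.0106 and 0.123. The 3 chains tested all had log2 fold changes below 0 (50.0% of all genes), with a median of -0.60. The summed type IV value was 18.0 ± 0.857 in siR-Con and 11.5 ± 3.13 in siR-GAL3 (SD, n = 3 each), a difference of 35.8%, and without siR-GAL3 replicate 2 it was 26.2%.

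Fibrillar chains formed 45.0% of the collagen sum in siR-Con and 44.7% in siR-GAL3. Their sum was above that of the other chains in every siR-Con library and in siR-GAL3 replicate 2, and below it in siR-GAL3 replicate 1 (53.1 against 54.8) and replicate 3 (49.7 against 53.1). All 8 that could be tested had log2 fold changes below 0 (50.0% of all genes), with a median of -0.19. Of these 8, 3 had an unadjusted p under 0.05 in limma, all of them lower (4.25% of all genes). COL1A1 and COL3A1, the main chains of types I and III in skin, vessel walls and scar, had the highest means over the 6 libraries, 16.7 and 16.2. COL1A1 was 17.3, 19.9 and 20.5 in siR-Con replicates 1 to 3 and 15.6, 12.03 and 14.8 in siR-GAL3 replicates 1 to 3. The groups did not overlap, and the means of 19.2 ± 1.70 and 14.1 ± 1.86 (SD, n = 3 each) differed by 26.5%. COL3A1 was 17.0, 21.1 and 19.4 in siR-Con replicates 1 to 3 and 14.9, 12.01 and 12.8 in siR-GAL3 replicates 1 to 3. It likewise had every siR-GAL3 library below every siR-Con library, with means of 19.2 ± 2.07 and 13.2 ± 1.49 (SD, n = 3 each), a difference of 30.9%. Their log2 fold changes were -0.42 (standard error 0.11) for COL1A1 and -0.50 (standard error 0.11) for COL3A1, with adjusted p values of 0.347 and 0.233 in limma, the second being the smallest of any chain. The difference was larger in the second library set, where COL3A1 was 36.8% and COL1A1 26.8% lower in siR-GAL3, than in the first, where they were 12.4% and 9.97% lower. Whether the sets differ was not tested.

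Type V and type XI chains enter the core of type I and type II fibrils and set their width. COL5A2 was 7.69, 7.76 and 7.76 in siR-Con replicates 1 to 3 and 6.77, 5.89 and 6.65 in siR-GAL3 replicates 1 to 3. Its siR-Con libraries lay closer together than those of COL1A1 or COL3A1 (SD 0.0395), none of the siR-GAL3 libraries reached them, and the log2 fold change was -0.23 (standard error 0.07, unadjusted p = 0.0136, adjusted p = 0.430). COL5A1 was 3.80, 3.59 and 3.82 in siR-Con replicates 1 to 3 and 3.34, 1.67 and 3.20 in siR-GAL3 replicates 1 to 3. Its difference of 26.7% became 12.5% without siR-GAL3 replicate 2. COL5A3, a chain of type V found in fewer tissues, overlapped between the groups, with means of 5.08 ± 0.611 and 4.68 ± 0.528 (SD, n = 3 each). COL11A2 was 2.49, 2.23 and 2.26 in siR-Con replicates 1 to 3 and 2.16, 1.90 and 2.17 in siR-GAL3 replicates 1 to 3. These groups did not overlap, but the log2 fold change was small, -0.11 (standard error 0.07, unadjusted p = 0.147). COL11A1 and COL27A1 overlapped, with log2 fold changes of -0.12 and -0.16. Without siR-GAL3 replicate 2 the log2 fold changes of COL5A3, COL11A1, COL11A2 and COL27A1 were -0.018, -0.077, -0.072 and 0.057. COL2A1, the cartilage fibril chain, was between 0.417 and 0.447 in all libraries but siR-GAL3 replicate 2, where it was 0.0529, and COL24A1 had a mean of 0.0266.

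Among the other collagens, the type VI chains, which assemble into beaded microfilaments around cells, included COL6A1, whose mean over the 6 libraries was 14.9 and which lay above COL3A1 in siR-GAL3 replicates 1 and 3. COL6A1 was 16.8, 17.8 and 17.2 in siR-Con replicates 1 to 3 and 15.3, 7.75 and 14.2 in siR-GAL3 replicates 1 to 3. One library carried much of that difference, which was 28.1% with siR-GAL3 replicate 2 and 14.5% without it, although the groups did not overlap either way. COL6A2 was 6.45, 7.98 and 7.28 in siR-Con replicates 1 to 3 and 6.14, 4.51 and 5.83 in siR-GAL3 replicates 1 to 3, a log2 fold change of -0.35 (standard error 0.12, adjusted p = 0.508 in limma). COL6A3 was 2.19, 2.68 and 2.54 in siR-Con replicates 1 to 3 and 1.83, 0.742 and 1.64 in siR-GAL3 replicates 1 to 3. That was the largest percentage difference among the chains tested, 43.2%, and it was 29.9% without siR-GAL3 replicate 2. COL6A4, COL6A5 and COL6A6, alternatives to COL6A3 in some tissues, all had means under 0.1.

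COL7A1 forms the anchoring fibrils below stratified epithelia. It was 2.53, 2.80 and 2.94 in siR-Con replicates 1 to 3 and 2.16, 1.99 and 2.01 in siR-GAL3 replicates 1 to 3. The groups did not overlap, siR-GAL3 replicate 2 did not stand apart from the other siR-GAL3 libraries, and the difference was 25.5% with it and 24.3% without it. The log2 fold change was -0.30 (standard error 0.07, unadjusted p = 0.00360, adjusted p = 0.262 in limma). COL18A1, a proteoglycan of basement membranes whose C-terminal fragment is endostatin, is found alongside type IV collagen. It was 10.9, 11.8 and 11.9 in siR-Con replicates 1 to 3 and 11.4, 4.87 and 10.8 in siR-GAL3 replicates 1 to 3, so that the groups overlapped and the difference of 22.1% became 4.29% without siR-GAL3 replicate 2. COL15A1, the related multiplexin, had a mean of 0.0218.

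The 2 tested chains with a log2 fold change above 0, COL9A3 and COL9A2, belong to the FACIT collagens, which sit on the surface of fibrils. COL9A3 was 4.04, 3.18 and 3.55 in siR-Con replicates 1 to 3 and 4.49, 4.06 and 4.76 in siR-GAL3 replicates 1 to 3. Every siR-GAL3 library lay above every siR-Con library, by a small margin in siR-GAL3 replicate 2, and the means of 3.59 ± 0.432 and 4.43 ± 0.352 (SD, n = 3 each) gave a log2 fold change of 0.25 (standard error 0.09, unadjusted p = 0.0332, adjusted p = 0.535 in limma). COL9A2, its partner in type IX, was 1.42 ± 0.0718 in siR-Con and 1.58 ± 0.320 in siR-GAL3 with overlap (SD, n = 3 each), and the remaining type IX chain, COL9A1, had a mean of 0.00982. COL16A1, a FACIT that binds cells and fibrils, was 6.18, 5.74 and 6.17 in siR-Con replicates 1 to 3 and 6.57, 4.12 and 6.83 in siR-GAL3 replicates 1 to 3. siR-GAL3 replicates 1 and 3 lay above every siR-Con library and replicate 2 below, and the log2 fold change was -0.064 with all libraries and 0.13 without siR-GAL3 replicate 2. COL12A1 and COL20A1 overlapped, with log2 fold changes of -0.16 and -0.11, and of -0.052 and -0.061 without siR-GAL3 replicate 2. That of COL9A2 was 0.084 with all libraries and -0.0044 without it. Over the 10 other chains tested, 8 were lower (50.0% of all genes) and 2 higher, with a median of -0.23. That median was -0.059 without siR-GAL3 replicate 2, whereas those of the fibrillar and type IV chains were then -0.11 and -0.35.

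The 21 chains with a mean under 1 were not tested. They were COL2A1 and COL24A1 of the fibrillar class, COL4A3, COL4A4 and COL4A6 of type IV, and COL6A4, COL6A5, COL6A6, COL8A1, COL8A2, COL9A1, COL10A1, COL13A1, COL14A1, COL15A1, COL17A1, COL19A1, COL22A1, COL25A1, COL26A1 and COL28A1. Their mean was lower in siR-GAL3 for 13 and higher for 8. The groups did not overlap for 6 of them, against 13.5% of the 9153 genes with a mean under 1, with COL6A6, COL8A1, COL14A1 and COL25A1 lower and COL19A1 and COL22A1 higher. A total of 11 had means under 0.1, and values below 0 occurred in 4 of these, COL15A1, COL17A1, COL19A1 and COL25A1. The most abundant was COL13A1, a transmembrane collagen of the neuromuscular junction, at 0.899 ± 0.108 in siR-Con and 0.927 ± 0.321 in siR-GAL3 (SD, n = 3 each). COL25A1, another transmembrane collagen that neurons make, was 0.0866, 0.0509 and 0.0492 in siR-Con replicates 1 to 3 and -0.00379, 0.00323 and 0.0266 in siR-GAL3 replicates 1 to 3. COL22A1 was 0.149 ± 0.0604 in siR-Con and 0.258 ± 0.0178 in siR-GAL3 (SD, n = 3 each). These levels are so low that the size of the differences cannot be weighed without the depth.

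**Figure D2:**
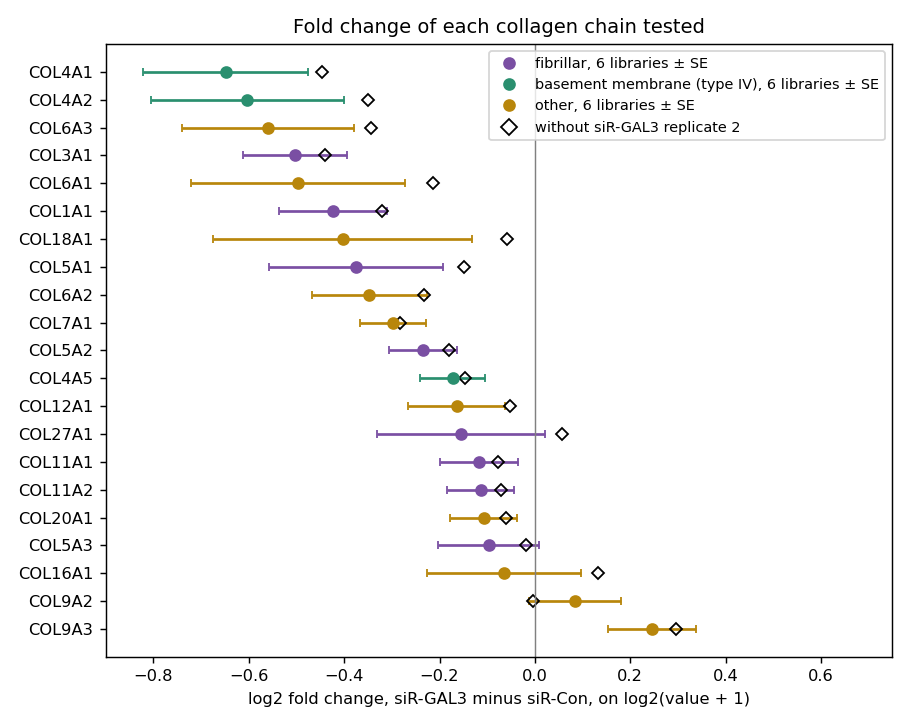
log2 fold change of each chain tested (siR-GAL3 minus siR-Con, on log2(value + 1), error bars one standard error from limma), coloured by class, with open diamonds for the fit without siR-GAL3 replicate 2. The diamonds of COL4A1, COL4A2, COL6A3, COL6A1, COL18A1 and COL5A1 lie nearer to 0 than the filled points, while those of COL7A1 and COL3A1 stay close to them.

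Promoter sequences in the RefSeq table of assembly GRCr8 were found for 33 of the 42 chains and for 16 of the 21 tested. In the 250 bases before the start site, the GC box GGGCGG or its reverse complement occurred in 12 of these 16 chains, against 62.0% of the promoters of all genes tested and 32.4% of all promoters in the table. The box CCAAT or its reverse complement occurred in 5 of the 16, against 36.7% and 34.3%. The letters TATAAA, on either strand, occurred in none of the 16, against 5.95% and 13.1%. The windows of COL4A1 and COL4A2 overlap and are not independent. The 100 bases before the start are shown for 3 more chains whose groups did not overlap, written in the direction of transcription with a GC box in capitals, to set a GC-rich promoter beside one that is not. They lie at chr8:118483264-118483363 on the plus strand for COL7A1 (74% G or C), chr20:11905590-11905689 on the plus strand for COL6A1 (66%) and chr9:55090152-55090251 on the minus strand for COL5A2 (45%).

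COL7A1: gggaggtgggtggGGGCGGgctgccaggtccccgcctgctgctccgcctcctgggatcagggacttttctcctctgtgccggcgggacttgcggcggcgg
COL6A1: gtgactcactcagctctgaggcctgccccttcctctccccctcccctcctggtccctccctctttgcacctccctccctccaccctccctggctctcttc
COL5A2: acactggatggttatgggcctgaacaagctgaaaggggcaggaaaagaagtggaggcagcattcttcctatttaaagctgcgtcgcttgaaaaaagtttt

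These sequences are descriptive. The 4 stretches differ in base composition, from 45% G or C in COL5A2 to 78.9% between COL4A1 and COL4A2.

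**Figure D3:**
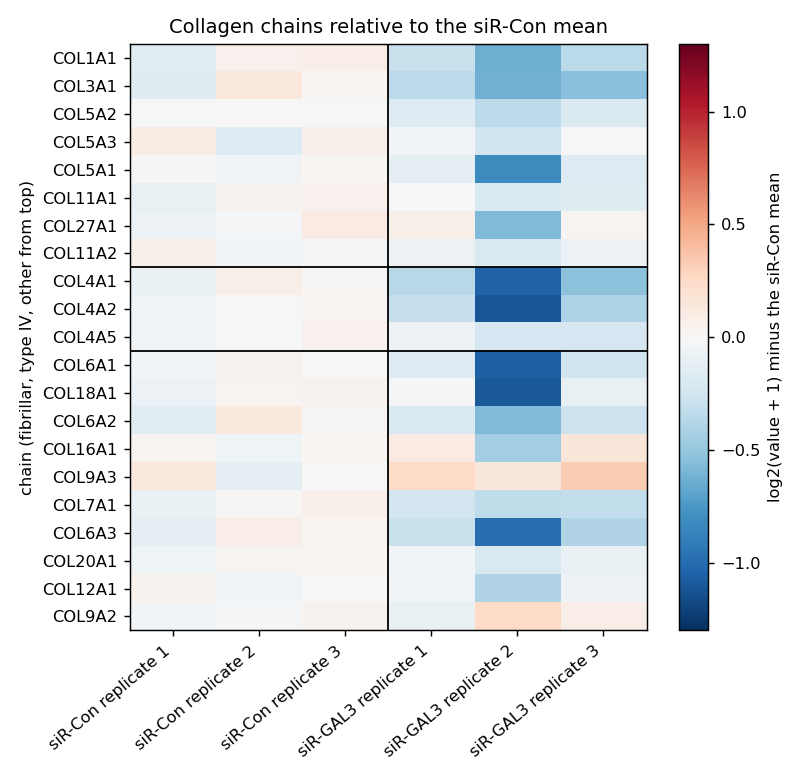
log2(value + 1) of each chain tested minus its siR-Con mean, by library, with blue for lower and red for higher values and lines between the fibrillar, type IV and other chains. The column of siR-GAL3 replicate 2 is the darkest blue except for COL9A2 and COL9A3, which are red there, siR-GAL3 replicates 1 and 3 show paler blue for COL1A1, COL3A1, COL4A1, COL4A2 and COL6A3, and COL9A3 is red in all 3 siR-GAL3 libraries.

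Chains that join one trimer or one fibril were compared within each library, where the scaling of the library cancels except for the added 1. Of 13 pairs chosen, 8 had both chains tested. The difference between the groups in the log2 ratio lay between -0.27 and 0.08, and the smallest exact permutation p was 0.1 (two-sided), for COL3A1 against COL5A2, with an adjusted p of 0.800 over the 8 pairs. Those are neighbouring genes, and the ratio of COL3A1 to COL5A2 was 2.48 ± 0.256 in siR-Con and 2.05 ± 0.139 in siR-GAL3 (SD, n = 3 each). The ratio of COL6A1 to COL6A3 was 7.66, 6.65 and 6.78 in siR-Con replicates 1 to 3 and 8.38, 10.4 and 8.68 in siR-GAL3 replicates 1 to 3. These ratios did not overlap, but the added 1 weighs more on COL6A3, and the difference of the log2 ratio was 0.063 with 1 added and 0.33 with 0.1 added. COL1A1 and COL3A1 stayed near parity, with ratios of 1.01 ± 0.0567 and 1.07 ± 0.0788 (SD, n = 3 each). The ratio of COL6A1 to COL6A2 was 2.40 ± 0.185 in siR-Con, and 2.49, 1.72 and 2.44 in siR-GAL3 replicates 1 to 3. The ratio of COL5A1 to COL5A2 was 0.483 ± 0.0176 in siR-Con and 0.493, 0.284 and 0.481 in siR-GAL3 replicates 1 to 3, and siR-GAL3 replicate 2 was the lowest library in both pairs.

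The genes that modify, fold, export and cross-link collagen were measured beside the chains. Of the 25 genes of this list that were tested, 16 were lower (50.0% of all genes) and 9 higher in siR-GAL3. Their median log2 fold change was -0.029. Without siR-GAL3 replicate 2 the list split into 11 lower and 14 higher with a median of 0.0073, and the median with the set as a factor was 0.013. With all libraries 1 gene of the 25 had an unadjusted p under 0.05 in limma (8.66% of all genes tested). It was BMP1, the protease that removes the C-terminal propeptide of fibrillar collagens. BMP1 was 14.1, 16.5 and 16.1 in siR-Con replicates 1 to 3 and 14.0, 11.0 and 13.1 in siR-GAL3 replicates 1 to 3, a log2 fold change of -0.28 (standard error 0.11, adjusted p = 0.535 in limma). SERPINH1, the collagen chaperone HSP47, was 31.8 ± 0.405 in siR-Con and 29.3 ± 0.681 in siR-GAL3 (SD, n = 3 each) without overlap, a log2 fold change of -0.11. COLGALT1, which adds galactose to hydroxylysine, had a log2 fold change of 0.17. SEC24D, which acts in the export of procollagen, was at -0.17, and TRAM2 was at -0.36. The log2 fold change of TRAM2 was -0.14 without siR-GAL3 replicate 2. The summed value of the list was between 182.0 and 186.7 in siR-Con and 186.2, 166.0 and 183.2 in siR-GAL3 replicates 1 to 3. The smallest adjusted p in the list was that of BMP1, and 2 of the 25 genes were without overlap and lower, against 10.3% of all genes.

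Of 11 collagen receptors in the matrix, 4 were tested and all 4 were lower in siR-GAL3 (50.0% of all genes). Their median log2 fold change was -0.20 with all libraries and -0.099 without siR-GAL3 replicate 2. MRC2, an endocytic receptor that takes up collagen fragments, was 2.34, 2.33 and 2.26 in siR-Con replicates 1 to 3 and 1.92, 1.70 and 1.79 in siR-GAL3 replicates 1 to 3. Its groups did not overlap, and its log2 fold change was -0.24 (standard error 0.06, unadjusted p = 0.00597, adjusted p = 0.324 in limma). ADGRG1, the receptor GPR56 for type III collagen, was 15.1 ± 1.17 and 12.9 ± 1.46 (SD, n = 3 each), also without overlap and lower (10.3% of all genes). DDR1, a receptor tyrosine kinase for collagen, and ITGB1, the common chain of collagen-binding integrins, overlapped, with log2 fold changes of -0.19 and -0.11, and of -0.063 and -0.030 without siR-GAL3 replicate 2. ADGRG1 was then at -0.13. The integrin chains ITGA1, ITGA2, ITGA10 and ITGA11 were all at means under 0.2.

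Markers of cells that could supply collagen were measured beside the chains, and their part in the result was not tested. Of 15 fibroblast markers 10 were tested, 8 lower (50.0% of all genes) and 2 higher, with a median log2 fold change of -0.18. FBLN1 and POSTN did not overlap and were lower (10.3% of all genes), at -0.18 and -0.23, LUM was at -0.47 with overlap, and DCN was at 0.16. MGP had the highest mean of the list, 6.85. The summed fibroblast value was 36.5 to 39.6 in siR-Con and 30.1 to 38.5 in siR-GAL3, with 33.4, 38.5 and 30.1 in siR-GAL3 replicates 1 to 3. Replicates 1 and 3 lay below every siR-Con library, and replicate 2, where the collagen sum was lowest, lay within the siR-Con range. Without replicate 2, 7 of the 10 fibroblast markers did not overlap and were lower, against 18.2% of all genes in that fit, and the median was -0.27. With the library set as a factor in limma, 7 had an unadjusted p under 0.05, all lower, against 7.90% of all genes, and the median was -0.27. Of 10 mural cell markers 3 were tested. PDGFRB and NOTCH3 were lower without overlap (10.3% of all genes), at -0.30 and -0.34, and TAGLN was higher without overlap (10.3%), at 0.30. ACTA2, RGS5, KCNJ8 and ABCC9 had means under 0.1. The mural sum was 7.62 to 8.20 in siR-Con and 7.10, 8.92 and 7.11 in siR-GAL3 replicates 1 to 3, so that replicates 1 and 3 lay below every siR-Con library and replicate 2 above. None of the 7 endothelial markers in the matrix reached a mean of 1, and their sum was 1.43 to 1.55 in siR-Con and 1.38 to 1.67 in siR-GAL3.

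Glial and neuronal markers were read in the same way. Of 9 astrocyte markers 7 were lower in siR-GAL3, against 50.0% of all genes tested. GFAP, ALDH1L1 and ALDOC were lower without overlap, against 10.3% of all genes. The astrocyte sum was 1153 to 1282 in siR-Con and 980.9 to 1079 in siR-GAL3. GFAP alone had means of 655.4 in siR-Con and 523.7 in siR-GAL3. All 9 microglial markers tested were higher, against 4247 of the 8495 genes tested, and 5 of them did not overlap (10.3% of all genes). CX3CR1 and P2RY12 had log2 fold changes of only 0.016 and 0.023. The microglial sum was 104.5 to 124.7 in siR-Con and 132.8 to 152.4 in siR-GAL3. The oligodendrocyte progenitor sum was 69.8 to 78.3 in siR-Con and 41.2 to 84.4 in siR-GAL3, the lowest in siR-GAL3 replicate 2, where GPR17 was listed at -7.25. Neuronal markers summed to 40.4 to 45.4 in siR-Con and 41.3 to 46.2 in siR-GAL3. Of the 6 tested, 4 were higher, against 4247 of the 8495 genes tested, and 2 lower. STMN2, with a mean of only 1.06, and SYT1 were higher without overlap (10.3% of all genes), at 0.33 and 0.18. TUBB3 and MAP2 were lower with overlap, at -0.12 and -0.092.

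**Figure D4:**
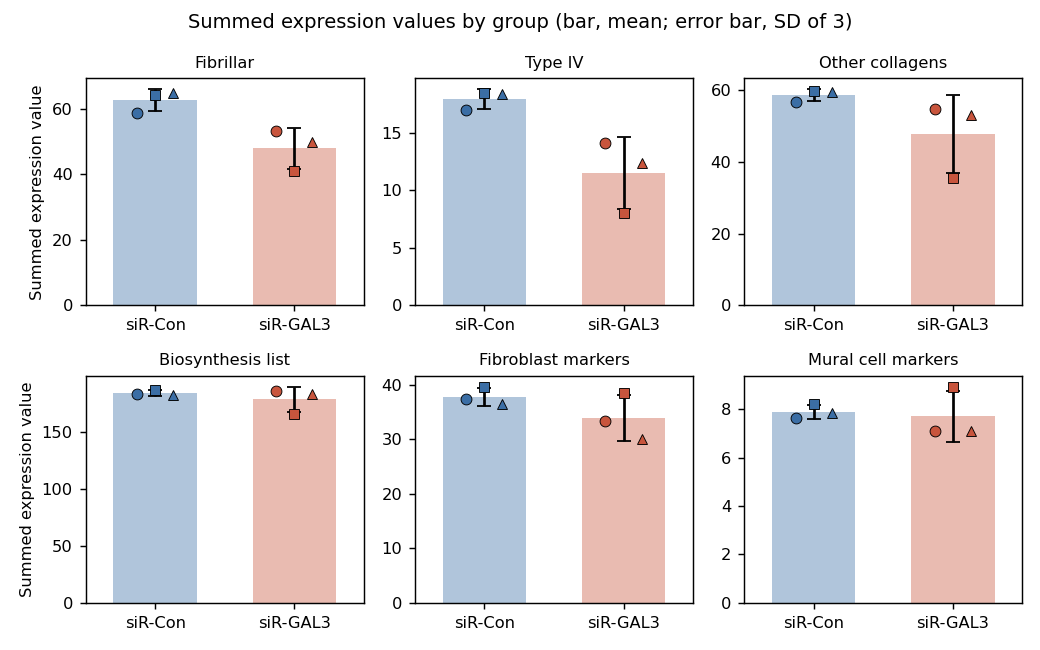
Summed expression values per library of the fibrillar, type IV and other collagens, the collagen biosynthesis list and the fibroblast and mural cell markers, with bars at the group mean, error bars of one SD (n = 3) and points for the libraries (circle, replicate 1; square, replicate 2; triangle, replicate 3). The 3 collagen classes do not overlap between the groups, whereas the biosynthesis, fibroblast and mural sums do. In the fibroblast and mural panels siR-GAL3 replicates 1 and 3 lie below every siR-Con library and replicate 2 does not.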

How the data were processed

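RNA of 6 libraries was sequenced. The deposited values have no standard unit. According to the methods and the supplement, STAR and HTSeq were used by the authors for alignment and counting per gene, FPKM were estimated, and batch effects were then removed and the data standardized and corrected for differences within groups, with the tools for these last steps not given in the sources used here. How that correction altered the spread between replicates was not tested. The genome build is not given in the sources used here, so RefSeq sequences of GRCr8 served for names and promoters only, and all 42 chains matched a symbol.

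Values below 0, which are not FPKM, the unit foreseen, were replaced by 0 and log2(value + 1) computed. limma 3.58.1 with an intensity trend in R 4.3.3 was applied to 8495 genes, those whose mean reached 1. Adding 1 makes the fold changes of low genes too small. No tested chain had a value below 0. A threshold of |log2 fold change| > 1 with an unadjusted P < 0.05, which the methods give for datasets of other studies, was met by 27 genes and no collagen chain. For the libraries sequenced here the supplement instead gives an adjusted P under 0.05 from a count model, and such counts were not analysed here. The fit was tested on simulated data with independent libraries and planted changes larger than those of any chain. That test cannot speak to the library sets, to siR-GAL3 replicate 2 or to small differences. Sequences were read in Python 3.11.15.

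Every chain whose mean reached 1 is named, and values of each library are given for those with a mean of 5 or more, for COL1A1 and COL3A1 and for those without overlap. From the biosynthesis and receptor lists up to 5 genes with the smallest p are named, and from the cell type lists those with the highest mean or at 0. Other genes and values given were chosen after they were seen. Chains, lists and tests were chosen with earlier results of these data known. Alternatives were another pseudocount (0.1), another filter (none, or a mean of 5), quantile or median-ratio scaling, no trend, a replicate or library set block, each library left out, and genes with a value below 0 left out.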

Additional observations from a re-analysis of the deposited data

How the results depend on the processing

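Under all 15 alternatives that refit the model, 18 of the 21 chains kept the sign of their log2 fold change wherever they could be fitted. The exceptions were COL16A1, at 0.13 in the library set block fit and at 0.13 without siR-GAL3 replicate 2 (-0.17 to 0.13 over the libraries left out), COL27A1, at 0.064 and 0.057 in these fits (-0.27 to 0.057), and COL9A2, at -0.0044 without siR-GAL3 replicate 2 (-0.0044 to 0.18). COL1A1, COL3A1, COL4A1, COL5A2 and COL7A1 had an unadjusted p under 0.05 in every fit that held them. Over the fits that leave out 1 library each, the number of chains with an unadjusted p under 0.05 lay between 5 and 13. Of all genes, 4.29% and 4.26% had such a p without siR-Con replicates 2 and 3, where 5 chains had it. Without siR-GAL3 replicate 2, where 13 chains had it, the share was 16.3%. Chains without overlap numbered between 13 and 18, with 18 in the fit without siR-GAL3 replicate 1 and 14 in that without siR-GAL3 replicate 2. With fewer libraries all genes separate more readily, 33.7% without siR-GAL3 replicate 2 against 20.5% with all libraries. Shares without overlap for the other fits that leave out 1 library were not computed, so their counts of chains cannot be set against all genes. The type IV median lay between -0.76 and -0.35, the fibrillar median between -0.27 and -0.11 and that of the other chains between -0.28 and -0.059. Between 25 and 29 genes had an absolute log2 fold change above 1 and an unadjusted p under 0.05. With a mean of at least 5, where 8 chains were left, 5 had an unadjusted p under 0.05 (10% of all genes in that fit), 6 did not overlap (23.7%), the fibrillar median was -0.42 and 6 genes passed both thresholds. Without a filter, where all 42 chains were fitted, the type IV median was -0.13, the fibrillar median -0.15 and that of the other chains -0.043, so that the fibrillar median was the largest of the 3. The median of the other chains was -0.058 in the library set block fit, and the cause was not tested. At an adjusted p under 0.1 in limma, 0 of the 10 chains were left. Leaving out genes with a value below 0 took the genes past both thresholds from 27 to 15, none of them a collagen chain.

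Whether the replicate numbers pair the libraries could not be settled, since replicates 1 and replicates 3 of both groups shared a library set. The deviations of same-numbered libraries from their group means correlated at -0.17, -0.070 and 0.044, and 1 of 6 libraries correlated best with its own number. Such correlations cannot exclude a pairing, because the deviations within a group depend on one another. With a replicate block, 11 chains had an unadjusted p under 0.05 (6.39% of all genes) and 27 genes passed both thresholds. The depth of the libraries is unknown, which limits what can be said of chains with a mean under 1.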
